A study of Mus musculus with 7 samples.

Results

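The genes described here span at least 300 kb of the mouse genome from their first to their last annotated exon base. Of 37310 genes in the deposited counts, 550 have such a span, and 392 of these also reached 5 counts in 4 or more of the 7 libraries, which makes them the long genes that could be compared, among 17170 genes tested in all. RNA of whole mammary glands of C57BL/6 mice at lactation day 1 was sequenced, in 3 libraries labelled WT and 4 labelled *Tardbp* KO. According to the study's methods, mice of both groups carried the transgene WAP-Cre, WT mice being *Tardbp* wt/wt and KO mice *Tardbp* fl/fl. In this transgene the *Wap* promoter, named for a milk protein, drives Cre in luminal epithelial cells from the middle of pregnancy, and Cre deletes exons 2 and 3 of *Tardbp*, so that fibroblasts, vessels, fat and immune cells of the gland keep the gene. The libraries of a group came from separate mice, going by the group sizes the study gives in mice. In RNA of a whole gland, fewer cells of a type and less RNA per cell cannot be told apart.

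*Tardbp* encodes TDP-43, a nuclear RNA-binding protein that prefers UG repeats and regulates splicing and RNA stability. Most of the length of a very long gene is intron, which RNA polymerase must cross and the spliceosome must remove before an mRNA is complete, and UG repeats are common in such introns. In the brain, loss of TDP-43 is known for lowering mRNAs that come from genes with very long, UG-rich introns, many of them genes of synapses and cell adhesion. The comparison below asks how genes of this length stood in the lactating gland.

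The long genes held many UG runs. A run of at least 6 TG dinucleotides on the sense strand (TGTGTGTGTGTG in the DNA, UG in the RNA; the opposite strand was searched as well) occurred in 100% of the 392 long genes, in 92% of the tested genes spanning 20 to 100 kb and in 63.1% of all genes tested. The share was 99.9% in the tested genes spanning 100 to 300 kb and 34.4% in those under 20 kb. It thus rose with span, by which the long genes were chosen. The longest run of a long gene had 16 to 45 TG dinucleotides, with a median of 27, and 377 of the 377 longest runs that were read lay in introns. The beginning of the longest run is shown for 6 genes whose levels are described below, because UG repeats are the sequence that TDP-43 prefers. Each line gives 30 bases of assembly NCBIM37, 5′ to 3′ on the sense strand of the gene, with the 10 bases before the run in lower case and the first 20 bases of the run in capitals.
Slc39a11, chr11:113280181-113280210, minus strand: tacagttctcTGTGTGTGTGTGTGTGTGTG
Ano4, chr10:88440347-88440376, minus strand: tgctctcctcTGTGTGTGTGTGTGTGTGTG
Nbea, chr3:55761900-55761929, minus strand: gccaaccaacTGTGTGTGTGTGTGTGTGTG
Dmd, chrX:82326853-82326882, plus strand: tttagaaaggTGTGTGTGTGTGTGTGTGTG
Bach2, chr4:32641578-32641607, plus strand: atgggcacttTGTGTGTGTGTGTGTGTGTG
Ltbp1, chr17:75582347-75582376, plus strand: cttcttaaccTGTGTGTGTGTGTGTGTGTG
The whole runs had 25 TG dinucleotides in *Slc39a11*, 27 in *Ano4*, 28 in *Nbea*, 27 in *Dmd*, 22 in *Bach2* and 24 in *Ltbp1*. They lay 231.2, 280.2, 225.7, 2132.7, 315.8 and 177.4 kb from the start of these genes, each in an intron. The first 4 of these genes were lower in the libraries labelled *Tardbp* KO and the last 2 were higher. Since 100% of the long genes held a UG run, these examples cannot show how runs and direction relate.

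Long genes were chosen by span and count alone. Their spans ran from 300.5 to 3009 kb with a median of 423 kb: 259 spanned 300 to 500 kb, 102 spanned 500 kb to 1 Mb and 31 spanned 1 Mb or more. All but 8 were protein coding, the others being 7 lincRNAs and 1 pseudogene. Merged exons made up a median of 1.72% of the span. The members just inside the limit were *Pam* (300.5 kb) and *Ranbp17* (302.0 kb), and the tested genes just outside it were *Jazf1* and *Pde1c* (299.8 kb each), whose log2 fold changes were 0.17, 0.97, 0.03 and 0.59. The span of a gene takes in all its annotated transcripts: 10 members had no single transcript of 300 kb, and in 86 only 1 of several transcripts was that long. The longest member, the fibroblast growth factor receptor *Fgfr2*, was one of the latter, with 1 transcript of 29 behind its 3009 kb and the next transcript at 103.7 kb.

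Counts per library lay between 36007737 and 42811337, with each mate of a read pair counted. Long genes took 0.571% ± 0.0439 (SD, n = 3) of them in WT libraries and 0.758% ± 0.119 (SD, n = 4) in the others, while genes of milk proteins took 28.9% ± 4.41 and 17.1% ± 4.11. Levels are therefore given in CPM, edgeR's unit of counts over a library size scaled by TMM factors, which are set from the bulk of the genes. On this scale the summed level of all long genes was 7038 ± 342 CPM in WT libraries and 7258 ± 681 CPM in the others. Most long genes were low: 87 averaged under 1 CPM, 141 from 1 to 10, 156 from 10 to 100, and 8 reached 100 CPM. The level of *Tardbp* itself was 223, 178 and 159 CPM in the WT libraries (replicates 1, 2 and 3, the order used throughout) and 215, 176, 154 and 208 CPM in KO replicates 1, 2, 3 and 4, with a log2 fold change of 0.01 (SE 0.182; edgeR quasi-likelihood test, adjusted p = 0.983). The groups overlapped, and a count over the whole gene in a gland with many cell types does not check a deletion of exons 2 and 3 in luminal cells.

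Long genes as a group were not lower in the libraries labelled *Tardbp* KO. Their median log2 fold change (KO over WT) was 0.12, with quartiles of -0.21 and 0.47, against 0.05 over all genes tested and 0.06 over the 6268 genes spanning 20 to 100 kb. The fitted change was below 0 in 163 of 392 long genes (41.6%), and in 45.7% of all genes. Each long gene was also set against the genes of 20 to 100 kb whose average log2 CPM lay within 0.25 of its own (37 to 627 genes). The median difference was 0.01, with 199 long genes above the median of their similar-level genes and 193 below it. Along the span classes the median log2 fold change was 0.02 under 20 kb, 0.06 from 20 to 100 kb, 0.12 from 100 to 300 kb, 0.11 from 300 to 500 kb, 0.16 from 500 kb to 1 Mb and 0.12 at 1 Mb or more. The quartile ranges of all 6 classes overlapped over most of their width.

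**Figure D1:**
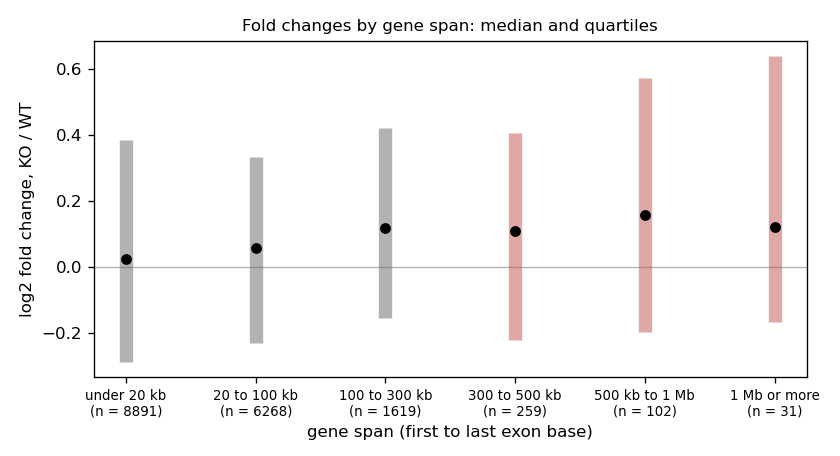
Log2 fold change (KO over WT, TMM-scaled counts) for tested genes in 6 classes of span; points are medians, bars run from the lower to the upper quartile, and n is the number of genes. The medians lie between 0.02 and 0.16; the 3 classes of 300 kb or more have medians of 0.11, 0.16 and 0.12, and the class of 100 to 300 kb has 0.12.

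No long gene passed the limits of the study's methods (a change over 1 on the log2 scale in either direction, at an adjusted p under 0.01) in edgeR's quasi-likelihood test, and neither did any other gene (0% of 17170). At an unadjusted p under 0.05, which 21.4% of all genes reached, 75 long genes (19.1%) were counted. Of these, 32 were lower in the libraries labelled *Tardbp* KO (8.16%, against 10.7% of all genes) and 43 were higher (11%, against 10.7%). The share of long genes was thus near that of all genes in each direction. With edgeR's exact test under the same limits 2 long genes fell and 2 rose (0.51% each, against 1.42% and 1% of all genes). DESeq2's Wald test called 5 lower (1.28%, against 1.62%) and 2 higher (0.51%, against 1.68%). The 4 KO libraries were all under the lowest of the 3 WT libraries in 28 long genes (7.14%, against 9.6% of all genes), and all over the highest in 38 (9.69%, against 9.06%). Leaving out WT replicate 1 took the counts at an unadjusted p under 0.05 to 20 lower (5.1%, against 5.89% of all genes) and 21 higher (5.36%, against 6.37%).

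The plot of fold change against span showed both directions at every length. Among the 31 members of 1 Mb or more, 1 was lower and 1 was higher at an unadjusted p under 0.05. That was 3.23% in each direction, against 10.7% of all genes, in a class with a median level of 2.37 CPM. The lower gene was *Dmd*. The higher gene was *Odz2*, a teneurin of the cell surface with a log2 fold change of 0.95, named here after its value was seen. A log2 fold change below -1 was fitted in 13 long genes, or 3.32% against 3.72% of all genes, and one above 1 in 23, or 5.87% against 7.36%; 16 of these 36 genes averaged under 1 CPM. The range ran from -2.13 in *Nkain3* to 3.29 in *Cacna1e*, a neuronal calcium channel subunit, at 0.215 ± 0.270 CPM (SD, n = 3) and 2.03 ± 1.77 CPM (SD, n = 4). Both of these genes, chosen as the extremes, had overlapping groups.

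**Figure D2:**
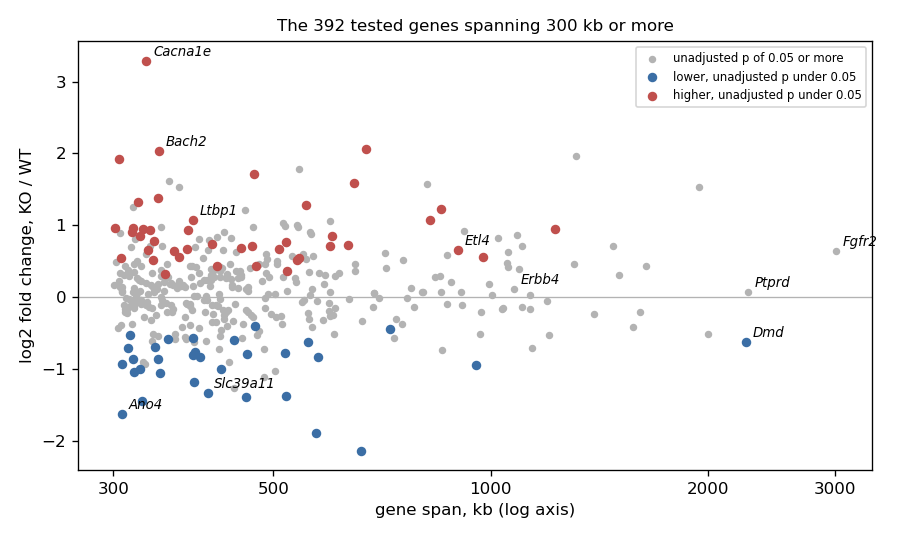
Log2 fold change (KO over WT) of the 392 tested genes spanning 300 kb or more against their span in kb (log axis); colour marks genes lower (32) or higher (43) at an unadjusted p under 0.05. Coloured points lie on both sides of 0, and all but 2 of them belong to genes under 1 Mb.

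Long genes were measured less precisely than shorter ones. The median standard error of the log2 fold change was 0.318 for long genes, 0.214 for genes of 20 to 100 kb and 0.259 for all genes, and a long gene had a median of 209 counts in its median library. Split into 4 classes of 98 genes by average level, long genes had median log2 fold changes of 0.18, 0.20, 0.08 and 0.06 from the lowest to the highest class, and genes of 20 to 100 kb in the same ranges of level had 0.27, 0.18, 0.08 and -0.01. In the highest class, above 20.95 CPM on average, 15.3% of the long genes were lower and 15.3% higher at an unadjusted p under 0.05, against 16.2% and 11.1% of the genes of 20 to 100 kb. In the lowest class the shares were 3.06% and 3.06%, against 2.84% and 9.04%. In the class above it they were 6.12% lower and 9.18% higher, against 4.48% and 14.7%. At these low levels the share of higher genes was thus smaller among long genes than among genes of 20 to 100 kb. The share of lower genes was not.

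The libraries of a group differed among themselves more than the groups did. The median of the long genes relative to the WT mean was 0.03, -0.13 and 0.11 (log2) in WT replicates 1, 2 and 3, and 0.13, 0.33, 0.24 and -0.24 in KO replicates 1, 2, 3 and 4. After subtracting the genes of similar level, the values were 0.003, -0.12 and 0.10 in WT libraries (mean -0.005, SD 0.108, n = 3) and 0.01, 0.16, 0.02 and -0.21 in KO libraries (mean -0.005, SD 0.151, n = 4). The groups overlapped fully, and KO replicate 4 had the lowest long genes of all 7 libraries while KO replicate 2 had the highest. KO replicate 4 was the lowest of the 7 libraries in 129 of the 392 long genes and KO replicate 2 in 13. Leaving out KO replicate 4 gave a median log2 fold change of 0.20 (all genes 0.03) and a median difference from similar-level genes of 0.06. At an unadjusted p under 0.05 it left 29 lower long genes (7.4%, against 12.4% of all genes) and 60 higher ones (15.3%, against 11.5%).

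**Figure D3:**
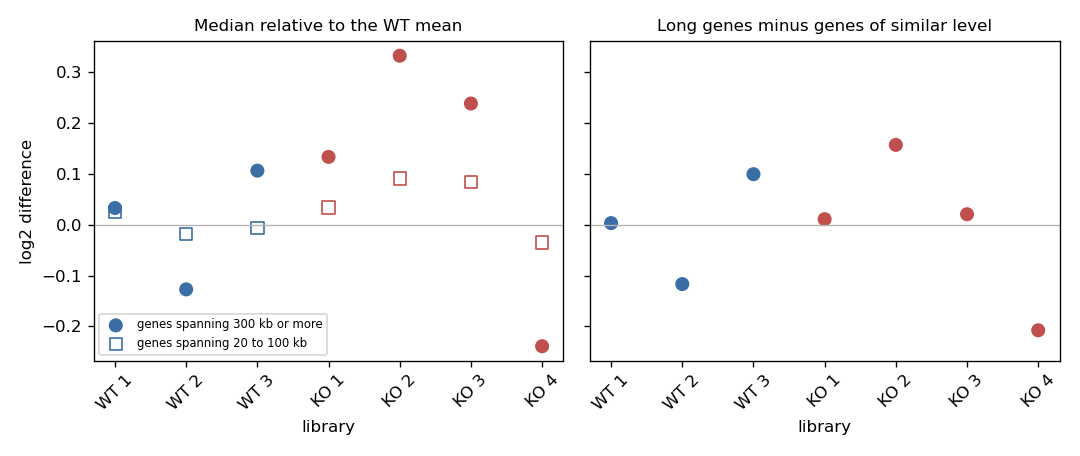
Left, median log2 difference from the WT mean in each of the 7 libraries for genes spanning 300 kb or more (filled circles) and 20 to 100 kb (open squares); right, the long genes minus genes of similar level. WT replicate 2 (-0.12) and KO replicate 4 (-0.21) are lowest and KO replicate 2 (0.16) is highest on the right, so the spread lies within the groups.

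Markers of fibroblasts and endothelium were also lowest in KO replicate 4 and WT replicate 2. The summed level of 5 fibroblast markers was 1103, 555 and 1500 CPM in the WT libraries and 1159, 1567, 868 and 377 CPM in the KO libraries, lowest where the long genes were lowest and highest in KO replicate 2. The 6 endothelial markers summed to 371, 286 and 435 CPM and to 431, 393, 358 and 225 CPM. The 6 luminal markers, which define the cells that lose *Tardbp*, summed to 2569, 3406 and 2787 CPM in WT libraries. In KO libraries they summed to 2766, 3117, 3399 and 4049 CPM, with 1 lower and 2 higher at an unadjusted p under 0.05. Their order was the reverse, highest in KO replicate 4 and next in WT replicate 2. Schwann and nerve cell markers were also highest in these libraries, at 763 and 750 CPM. Markers of myoepithelium were lowest in KO replicate 2 (956 CPM), where the long genes were highest. Other cells had other orders: 5 adipocyte markers summed to 2382, 2977 and 3355 CPM in WT libraries and to 2415, 4718, 3213 and 3026 CPM in KO libraries, and 6 myeloid markers to 377, 1497 and 663 CPM and to 1068, 2160, 2626 and 2445 CPM. None of the 5 fibroblast or 6 endothelial markers was at 0 in all libraries, and none passed an unadjusted p under 0.05 between the groups. The part of these cells in the values of the long genes was not tested.

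The exact test called a zinc transporter and an anoctamin lower. *Slc39a11* (ENSMUSG00000041654, minus strand, chr11:113106167-113511393), a zinc transporter of the ZIP family, stood at 114, 54.95 and 96.3 CPM in WT libraries and at 42.95, 32.0, 26.0 and 39.4 CPM in KO libraries. The highest KO library was under the lowest WT library. Its log2 fold change was -1.34 (SE 0.262), with an adjusted p of 0.0716 in edgeR's quasi-likelihood test and 0.000407 in edgeR's exact test. *Ano4* (ENSMUSG00000035189, minus strand, chr10:88411740-88720535), an anoctamin membrane protein, had 19.8, 8.67 and 10.2 CPM in WT libraries and 7.27, 2.65, 3.32 and 3.52 CPM in KO libraries. The groups did not overlap, although WT replicate 2 and KO replicate 1 came close. The log2 fold change was -1.62 (SE 0.408; adjusted p = 0.0898 in the quasi-likelihood test and 0.00763 in edgeR's exact test). These were the 2 long genes that fell in the exact test, and DESeq2 called them as well.

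DESeq2 called 3 more long genes lower. *Scfd2*, a protein of the Sec1 family of membrane traffic factors (minus strand, chr5:74600841-74927772), had 36, 21.7 and 29.9 CPM in WT libraries and 13.01, 14.6, 13.7 and 17.2 CPM in KO libraries. The groups did not overlap, and the log2 fold change of -0.997 (SE 0.196) lay at the limit of the study (adjusted p = 0.000951 by DESeq2 and 0.0716 by the quasi-likelihood test). *Phactr1*, a regulator of actin and of protein phosphatase, and *Zbtb7c*, a zinc finger protein, were named after their calls were seen, with log2 fold changes of -1.38 and -1.43 and DESeq2 adjusted p of 0.00708 and 0.0094. In both genes the spread of the WT libraries was wide, from 9.98 to 30.1 CPM in *Phactr1* and from 4.35 to 13.2 CPM in *Zbtb7c*.

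Other lower genes of the named set differed by less than 1 on the log2 scale. *Cadps2*, which primes dense-core vesicles for secretion, had 34.2, 26.6 and 29.8 CPM in WT libraries and 15.9, 16.8, 20.1 and 15.1 CPM in KO libraries (log2 fold change -0.83, SE 0.158, adjusted p = 0.0697). *Nbea*, neurobeachin, a BEACH-domain protein of membrane traffic (minus strand, chr3:55429127-55987623), had 95.0, 75.7 and 83.5 CPM against 61.6, 55.8, 54.0 and 48.4 CPM (log2 fold change -0.62, SE 0.140, adjusted p = 0.0802). *Tln2*, talin 2, which ties integrins to actin, had 106, 69.1 and 94.9 CPM against 60.0, 59.6, 52.1 and 52.6 CPM (log2 fold change -0.68, SE 0.166, adjusted p = 0.086). In these 3 genes no KO library reached a WT library, and the difference between groups exceeded the SD within either group. Adenosine kinase, *Adk*, had 68.7, 35.8 and 44.3 CPM in WT libraries and 25.3 to 29.7 CPM in KO libraries (log2 fold change -0.83, SE 0.211, adjusted p = 0.0902). Its KO libraries were close together while WT replicate 1 stood above the other WT libraries. The adjusted p-values of this paragraph are those of edgeR's quasi-likelihood test.

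The exact test called a lymphocyte transcription factor and a matrix protein higher. *Bach2* (ENSMUSG00000040270, plus strand, chr4:32325779-32673083), a transcriptional repressor that acts in B and T lymphocytes, had 5.004, 7.72 and 3.90 CPM in WT libraries and 32.3, 16.4, 26.8 and 15.3 CPM in KO libraries. Every KO library lay above every WT library. The log2 fold change was 2.03 (SE 0.348), with the smallest adjusted p of any long gene in the quasi-likelihood test (0.0652) and 2.7e-05 in edgeR's exact test. *Ltbp1* (ENSMUSG00000001870, plus strand, chr17:75404908-75791852), which binds latent TGF-beta to the extracellular matrix, had 19.9, 48.9 and 33.1 CPM in WT libraries and 66.7, 78.1, 70.4 and 70.8 CPM in KO libraries. The KO libraries lay close together and above a wide range of WT libraries. Its log2 fold change was 1.07 (SE 0.265; adjusted p = 0.0873 in the quasi-likelihood test and 0.00782 in edgeR's exact test). *Bach2* and *Ltbp1* were the 2 long genes that rose in the exact test and in DESeq2.

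The other higher genes of the named set did not pass the study's limits in any of the 3 tools. *Etl4*, a scaffold protein of 900.9 kb also known as sickle tail, had 50.6, 52.7 and 52.7 CPM in WT libraries and 83.2, 93.0, 80.8 and 72.0 CPM in KO libraries (log2 fold change 0.66, SE 0.132, adjusted p = 0.0724). *Foxp1*, a forkhead transcription factor, had 20.8, 26.5 and 23.6 CPM against 39.5, 37.3, 53.4 and 32.5 CPM (log2 fold change 0.78, SE 0.191, adjusted p = 0.0865). *Mast4*, a kinase that associates with microtubules, had 74.7, 96.3 and 85.6 CPM against 191, 193, 115 and 121 CPM (log2 fold change 0.86, SE 0.231, adjusted p = 0.0972). None of the 3 had overlapping groups, and the adjusted p-values again come from edgeR's quasi-likelihood test. *Ranbp17*, of the importin-beta family, and *Ccdc148*, which averaged 0.804 CPM in WT libraries, also had KO libraries above all WT libraries, at log2 fold changes of 0.97 and 1.33. With 3 against 4 libraries an exact permutation test of log2(CPM + 1) allows 35 splits and a smallest two-sided p of 0.0286. *Etl4*, *Foxp1*, *Ranbp17* and *Ccdc148* reached that p in this test. *Mast4*, *Ano4*, *Snd1* and *Prkca* had a p of 0.0571 in it, although their groups did not overlap.

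**Figure D4:**
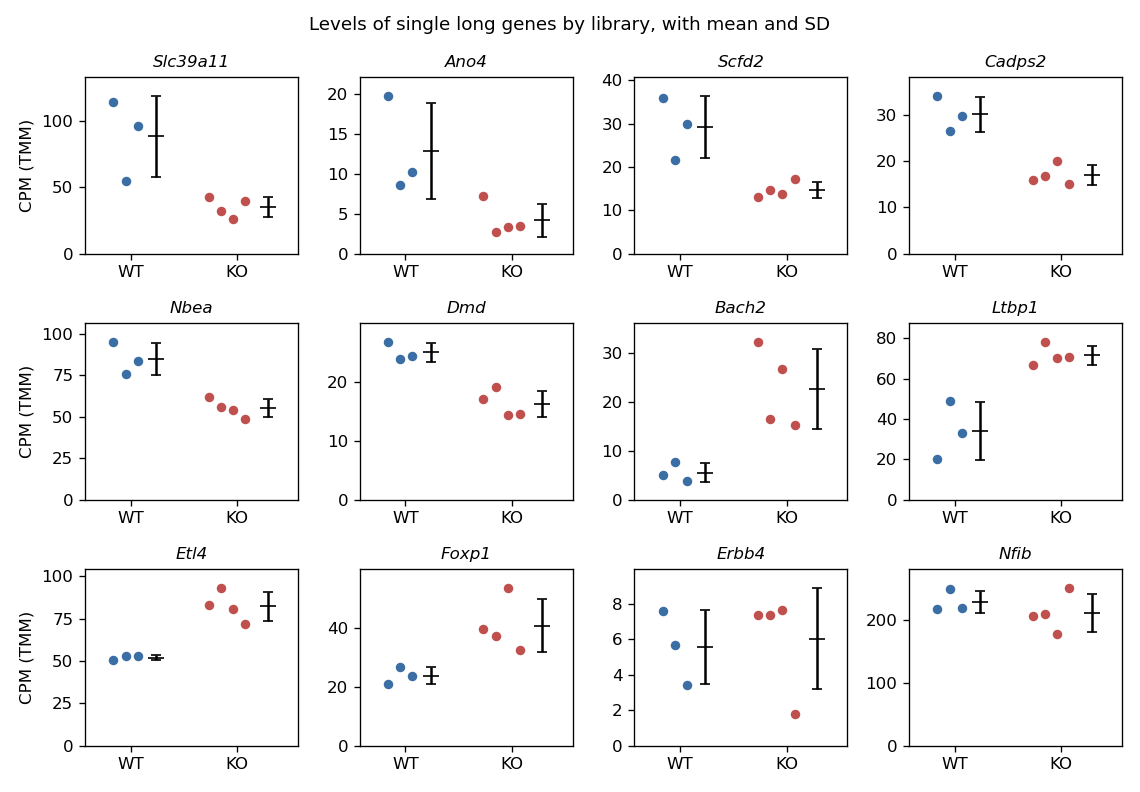
TMM-scaled CPM in each library (points) with the mean and SD of each group (bars) for 12 long genes, in 3 WT and 4 KO libraries; every axis starts at 0. KO points lie below WT points in Slc39a11, Ano4, Scfd2, Cadps2, Nbea and Dmd and above them in Bach2, Ltbp1, Etl4 and Foxp1, and overlap in Erbb4 and Nfib.

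Per kb of exon, the most abundant long genes of the gland included enzymes, regulators of transcription and a zinc transporter. *Snd1*, a nuclease-domain protein of gene regulation, was first at 44.0 CPM per kb, followed by *Gmds*, which starts the synthesis of GDP-fucose, at 33.5, the co-repressor *Rere* at 27.5, *Adk* at 21.8 and *Slc39a11* at 17.3 CPM per kb. The next were *Nfib*, *Gphn*, *Pgcp*, *Ptprk* and *Arfip1*, from 14.6 down to 11.1 CPM per kb. *Snd1* had 518, 342 and 452 CPM in WT libraries and 337, 198, 174 and 306 CPM in KO libraries, a log2 fold change of -0.79 (SE 0.267; edgeR adjusted p = 0.146) with KO replicate 1 just below WT replicate 2. For *Gmds* the values were 79.3, 50.7 and 79.2 CPM against 46.9, 33.2, 23.8 and 59.0 CPM, and KO replicate 4 overlapped the WT range (log2 fold change -0.78, SE 0.301). *Rere* went the other way, at 187 ± 36.7 CPM (SD, n = 3) and 269 ± 62.4 CPM (SD, n = 4), also with overlap. *Ptprk*, a receptor-type tyrosine phosphatase of cell contacts, had 62.9 to 72.8 CPM in WT libraries and 82.3 to 100 CPM in KO libraries without overlap (log2 fold change 0.37, SE 0.133).

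Of the 10 most abundant long genes, then, *Snd1*, *Gmds*, *Adk* and *Slc39a11* were lower and *Rere* and *Ptprk* higher at an unadjusted p under 0.05. The log2 fold changes of *Nfib*, *Gphn*, *Pgcp* and *Arfip1* were -0.11 (SE 0.160), -0.17 (SE 0.184), -0.26 (SE 0.215) and -0.24 (SE 0.133), and their groups overlapped. With counts scaled by library size only, which moved the median of all genes to 0.42, all 4 values were above 0 but below that median, at 0.24, 0.21, 0.12 and 0.14. No single transcript of *Nfib* reaches 300 kb, and *Arfip1* has 1 of 5.

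Lists by role were written from general knowledge of long genes, with earlier results of these data known, and are described by counts and medians only. Their counts are those at an unadjusted p under 0.05, which 10.7% of all genes reached in each direction. By that measure, the 21 tested cell adhesion genes held 1 lower gene, *Unc5d* (log2 fold change -1.88, at 0.522 CPM in WT libraries), and 0 higher ones, with a median of -0.11. The 21 include *Lsamp* and *Opcml*, which act on axons in the brain. Receptor kinases, phosphatases and their ligands (20 genes, median 0.21) had 0 lower and 2 higher, *Ptprk* and the semaphorin *Sema5a* (0.68). In *Erbb4*, the neuregulin receptor needed for alveolar differentiation (1076 kb), the levels were 7.60, 5.69 and 3.42 CPM in WT libraries and 7.35, 7.39, 7.66 and 1.76 CPM in KO libraries. Its log2 fold change was 0.12 with an SE of 0.486, so a small or moderate difference in either direction was not detectable with this spread. *Fgfr2* (log2 fold change 0.64, SE 0.318) and *Ptprd* (0.07, SE 0.359), the longest 2 members, also had overlapping groups.

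Dystrophin and its relatives gave different values within 1 complex. *Dmd* (ENSMUSG00000045103, plus strand, chrX:80194209-82451480), whose protein links actin to the membrane complex of dystroglycan, had 26.8, 23.8 and 24.4 CPM in WT libraries and 17.1, 19.1, 14.3 and 14.6 CPM in KO libraries. The groups did not overlap, at a log2 fold change of -0.62 (SE 0.155; edgeR quasi-likelihood test, adjusted p = 0.089). Its homologue utrophin, *Utrn*, had 101 ± 13.6 CPM (SD, n = 3) and 91.1 ± 12.4 CPM (SD, n = 4), with overlap. *Large*, the enzyme that extends the laminin-binding glycan of dystroglycan, was higher at an unadjusted p under 0.05 (log2 fold change 0.52), and *Sgcd*, delta-sarcoglycan, was measured at 0.39 (SE 0.376). Muscle markers were low in these libraries: of 6 genes, 4 had enough counts to be tested, and the sum was 5.19 to 11.3 CPM. Markers of myoepithelium summed to 1113 to 1909 CPM (WT) and 956 to 2873 CPM (KO). The part of these cells in the level of *Dmd* was not tested.

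Scaffold proteins of polarity, junctions and the cytoskeleton (28 genes, median 0.26) held 2 lower genes, *Fmn1* (-0.76) and *Exoc4* (-0.43), and 4 higher ones, *Mast4*, *Grip1* (0.73), *Macf1* (0.66) and *Nav2* (0.64). *Magi1*, a junction scaffold, was at 0.30 (SE 0.185). Among exchange factors and GTPase-activating proteins (15 genes, median 0.14), *Agap1* was lower (-0.59, SE 0.153, with no overlap) and *Dock2*, *Arhgap15*, *Arhgap6* and *Rgnef* were higher. Signalling enzymes (24 genes, median 0.12) had 0 lower and 4 higher: *Prkcb* (1.38), *Pde4b* (0.77), *Prkca* (0.75) and *Kalrn* (0.71). Protein kinase C alpha, *Prkca*, stood at 10.9, 13.9 and 13.3 CPM in WT libraries and at 17.0, 23.2, 29.5 and 15.6 CPM in KO libraries, without overlap.

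Transcription and chromatin regulators (30 genes, median 0.15) had 1 lower gene, *Sox5* (-0.94), and 6 higher ones, *Bach2*, *Tox*, *Runx2* (0.90), *Foxp1*, *Rere* and *Maml3* (0.43). *Esr1*, the estrogen receptor, had 22.5, 15.7 and 17.2 CPM against 7.06, 22.8, 11.9 and 13.1 CPM, with KO replicate 2 above all WT libraries (log2 fold change -0.43, SE 0.345). *Nfia*, *Tcf4*, *Zbtb20* and *Auts2* were measured at -0.21, -0.25, -0.01 and -0.13, all with overlap, and each of these 4 values lay above 0, though below the median of all genes, when counts were scaled by library size only. Channels and transporters (28 genes, median -0.06) had 3 lower genes, *Slc39a11*, *Ano4* and the potassium channel *Kcnq1* (-0.86), and 2 higher ones, *Kcnh1* (0.97) and *Cacna1e*. Genes of common fragile sites and large housekeeping genes (24 genes, median -0.09) had 3 lower, *Snd1*, *Nbea* and *Exoc4*, and 0 higher. The fragile site genes *Fhit* (-0.20), *Wwox* (-0.11) and *Immp2l* (0.46) had overlapping groups. Matrix and secreted proteins (12 genes, median 0.03) had 0 lower and 2 higher, *Ltbp1* and *Thsd4* (1.29), and of 4 RNA-binding proteins only *Celf2* (0.55) was higher. The 183 long genes in no list had a median of 0.14, with 21 lower and 17 higher.

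Leukocyte-expressed genes were the list with the highest median, 1.59 over 7 genes against 0.05 over all genes tested. The list was written with the higher lymphocyte markers of these data known and is no independent evidence of its direction. At an unadjusted p under 0.05, 5 of the 7 were higher: *Bach2*, *Tox* (1.92), *Dock2* (1.71), *Arhgap15* (1.59) and *Prkcb* (1.38), while *Aff3* (0.60) and *Elmo1* (0.29) did not pass. *Dock2*, a Rac activator of leukocyte migration, had 10.95, 7.30 and 8.71 CPM in WT libraries and 43.4, 15.0, 49.3 and 10.1 CPM in KO libraries. KO replicates 1 and 3 were high and KO replicate 4 lay within the WT range. The summed level of 10 lymphocyte markers, all 10 of them higher at an unadjusted p under 0.05, was 53.5, 46.3 and 38.4 CPM in WT libraries and 431, 67.4, 589 and 133 CPM in KO libraries, highest in the same replicates 1 and 3; none of the markers was at 0 in all libraries. The list of leukocyte genes shares members with the lists of transcription regulators, exchange factors and signalling enzymes, whose higher genes include these 5. The part of lymphocytes in these values was not tested.

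**Figure D5:**
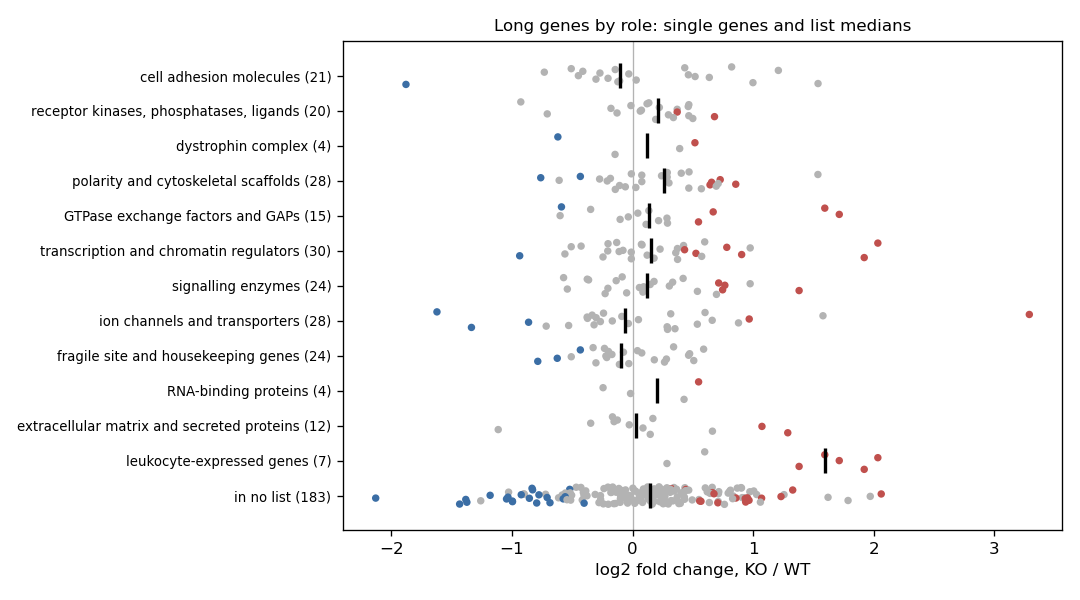
Log2 fold change (KO over WT) of single long genes by role list, with the number of genes in parentheses and the list median as a black bar; blue and red mark genes lower or higher at an unadjusted p under 0.05. The leukocyte list has its median at 1.59, and the other medians lie between -0.11 and 0.26.

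Long genes differed from genes of 20 to 100 kb in features that the choice by span did not use. Their merged exons had a median of 8221 bases against 4429, with 21 exons against 12, and the GC content of the gene body was 41.5% against 44.4%. On the sense strand they held 10.2 UG runs of at least 6 dinucleotides per 100 kb, against 8.85, and on the opposite strand 8.45 against 5.82. For runs of at least 10 dinucleotides the medians were 5.95 and 4.82, and for runs of at least 3 they were 81.8 and 89.3, in the other order. Median levels were 6.00 and 22.1 CPM. The density of sense UG runs was not particular to the long genes. Genes of 100 to 300 kb held 10.2 sense runs of at least 6 dinucleotides per 100 kb and 6.0 of at least 10. On the opposite strand they held 7.6 runs of at least 6.

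None of these features ordered the long genes by their fold change to more than a small degree. Spearman's rank correlation with the log2 fold change over the 392 genes was 0.05 for span, 0.03 for the longest intron, 0.09 for exon length, 0.04 for sense UG runs per 100 kb, 0.11 for those of the opposite strand and -0.10 for average level, as a description across genes of the same 7 libraries. Over all 17170 genes it was 0.04 for span and 0.04 for sense UG runs. In 4 classes of 98 long genes by density of sense UG runs, from 1.59 to 27.4 per 100 kb, the medians were 0.14, 0.14, 0.10 and 0.09. At an unadjusted p under 0.05 in the quasi-likelihood test, 10, 7, 7 and 8 genes of these classes were lower and 9, 10, 9 and 15 higher. Of all genes tested, 10.7% reached that limit in each direction. *Slc39a11* with 14.6 and *Ltbp1* with 15.0 runs per 100 kb fell in the same class and had opposite directions.

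Only lane 4 held libraries of both genotypes, WT replicate 2 and KO replicates 3 and 4. The other libraries had lanes of their own: lane 3 for WT replicate 1, lane 2 for WT replicate 3, lane 1 for KO replicate 1 and lane 5 for KO replicate 2. Within lane 4, and with no test since WT had 1 library, the median log2 fold change of the long genes was 0.09 and the median difference from genes of similar level 0.02. *Slc39a11* stood at -0.78, *Ano4* at -1.33, *Dmd* at -0.72, *Bach2* at 1.39 and *Ltbp1* at 0.53, in the same direction as over all lanes, while *Erbb4* stood at -0.62 against 0.12.

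Of the 550 long genes, 158 were not compared because of low counts. Of these, 48 had 0 counts in all 7 libraries, and the median sum over the libraries was 4.5 counts. The tested share was 71.3% of long genes, 77.3% of genes of 20 to 100 kb and 46.0% of all genes. Within the 392 tested members, 282 hold whole other genes, mostly in their introns, and 93 share exon bases with another gene. The other gene may lie on either strand. Reads of both strands were counted, so strand could not assign the reads of shared bases in those 93. *Bach2*, *Etl4*, *Foxp1*, *Mast4* and *Ranbp17* belong to the 93.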

How the data were processed

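The authors mapped paired-end reads of TruSeq libraries to NCBIM37 with STAR (2.5.2a per the labels) and counted them on exons with featureCounts 1.4.6-p5; the deposited values are raw counts per gene, with no option set for strand, pairs or multimapping reads. The file header names 1 library more than has a column, not analysed here. Gene spans and sequences were read from the annotation of the same assembly, whose coordinates equal those of the file. Mitochondrial (37) and ribosomal (582) genes were left out, and 17170 genes that reached 5 counts in 4 or more libraries were fitted with edgeR 4.0.16 (R 4.3.3; TMM, quasi-likelihood test, genotype only, Benjamini-Hochberg adjustment), following the methods of the study, which do not name the test. The library totals of 36007737 to 42811337 counts limit low genes most. edgeR's exact test and DESeq2 1.42.0 were alternatives, as were other scalings, filters, span limits and comparison genes. Further alternatives were the removal of trends over GC content and exon length, fits that left out 1 library, a replicate block and lane 4 only. Single genes also had a two-sided exact permutation test.

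Genes named were the 10 most abundant per kb of exon, the 8 lower and 8 higher with the smallest p, any called, a fixed list of 16, those at the limit and the 3 longest; others are marked, and the values of 1 are not reported here. Members and lists were chosen with earlier results of these data known.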

Additional observations from a re-analysis of the deposited data

Results flagged for a closer look

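Among the 4 libraries labelled *Tardbp* KO, KO replicate 4 stood apart from the other three in 3 of 44 groups of values checked, each time as the lowest, by the size of its gap relative to the whole range of the group; chance gives about 1 in 20. *Erbb4* was at 1.76 CPM in KO replicate 4 and at 7.35 to 7.66 CPM in the others; without this library its log2 fold change was 0.40. *Auts2*, a chromatin regulator, was at 18.3 CPM against 21.8 to 22.2 CPM. *Jazf1*, a zinc finger gene just under the span limit, was at 2.19 CPM against 3.41 to 3.54 CPM. KO replicate 4 was also the lowest KO library in 230 of the 392 long genes, and it had the lowest sum of fibroblast markers (377 CPM).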

How the results depend on the processing

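The median difference from genes of similar level lay between -0.08 and 0.08 in all 30 alternatives, less than the spread between libraries, so its sign is not settled. The number of long genes past the study's limits (0) was 4 with edgeR's exact test and 7 with DESeq2, and 0 with each library left out. The 32 lower genes (8.16%) became 8 with library size only (2.04%, against 3.04% of all genes). They were 60 of 741 at a limit of 200 kb (8.1%) and 9 of 133 at 500 kb (6.77%), against 10.7% of all genes. With 1 library left out they ran from 20 (5.1%, against 5.89% of all genes) to 37 (9.44%, against 11.7%). The 43 higher genes (11%) became 109 with library size only (27.8%, against 30.8% of all genes). With milk protein counts left out of the library size they were 67 (17.1%, against 16.6%). Against 10.7% of all genes, they were 100 at 200 kb (13.5%) and 16 at 500 kb (12%). Of the 299 members that share no exon bases, 28 were higher (9.36%, against 10.7%). With 1 library left out the higher genes ran from 21 (5.36%, against 6.37% of all genes) to 60 (15.3%, against 11.5%). Library size only took the median log2 fold change from 0.12 to 0.50 and that of all genes to 0.42. Leaving out 1 library gave 0.03 to 0.20. With trends over GC content and exon length removed, the median was 0.01 for long genes and -0.03 for all genes. In that setting 38 long genes were lower (9.69%, against 13.5% of all genes) and 31 higher (7.91%, against 8.63%). An alternative chosen after seeing the data left out members whose span rests on 1 of several transcripts or on none. Of the 296 members kept, 24 were lower (8.11%) and 33 higher (11.1%), against 10.7% of all genes in each direction. Their median was 0.14. Replicate numbers did not pair the libraries (correlations of 0.35, 0.09 and -0.06); with the replicate block 70 long genes were higher (17.9%, against 12.8% of all genes) and 28 lower (7.14%, against 11.7%). Over their alternatives, the adjusted p ranged from 0.000407 to 0.274 for *Slc39a11*, 0.00403 to 0.335 for *Ano4*, 3.03e-06 to 0.265 for *Bach2* and 0.00486 to 0.273 for *Ltbp1*. Low counts limit the 65 members with a median count under 20.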

Other observations

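Some long genes differed more between single libraries than between genotypes. Of the 212 members with a mean of at least 5 CPM, *Inpp4b*, a phosphoinositide phosphatase, had the widest range, from 1.37 CPM in WT replicate 2 to 12.5 CPM in WT replicate 1 (9.08-fold), with 1.97 to 10.96 CPM in KO libraries. *Ncald*, a neuronal calcium sensor, ran from 11.6 to 65.5 CPM within WT and from 21.6 to 91.1 CPM within KO libraries. *Itgbl1* and *Adamtsl1*, which encode secreted proteins, were lowest in KO replicate 4 (1.09 and 1.68 CPM) and highest in KO replicate 2 (8.77 and 12.6 CPM). *Hecw2*, a ubiquitin ligase, was at 3.25 to 11.5 CPM in WT and 1.49 to 5.28 CPM in KO libraries. These genes were chosen after their values were seen, by the ratio of the highest to the lowest library. By that ratio *Thsd4* (8.29-fold), *Bach2* (8.29-fold) and *Ano4* (7.48-fold) also ranked among the widest. They were left out here because they are named above with their differences between genotypes.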
